A study of Mus musculus with 41 samples.

Results

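The livers of newborn male mice whose dams had eaten a high fat diet (HFD) before and during gestation were compared with those of males whose dams had eaten a regular diet (RD), both without metformin. The comparison holds 9 of the 41 arrays of the series, chosen by their titles as male control livers, with 6 HFD animals (1R-1, 1R-4, 1T-1, 1T-2, 1T-3 and 1T-4) and 3 RD animals (1B, 3B and 5C). The methods name C57/BL6NHsd mice for the HFD work, all livers were taken at postnatal day 4, and each array held RNA of 1 animal's liver. The HFD dams were moved gradually to RD around birth and ate RD alone after it. Tissue was either snap frozen or kept in RNAlater, and which liver was kept which way is not stated. What the animal codes stand for is not stated, and shared codes may mark litters. In HFD 2 animals have code 1R and 4 have code 1T, and in RD 1B and 3B share code B. If these are litters, the p-values below are too small. Every RD liver belonged to the labels' Study I and every HFD liver to Study II. Diet and study therefore cannot be told apart in any result below. Each difference is written as HFD against RD only because those are the labels of the groups. The paper uses the names study I and study II otherwise, for separate sets of mice, and puts its microarray samples under study I. It also states that the arrays were analysed together with an earlier dataset of its authors, whose earlier study had dams on RD.

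In the days after birth the mouse liver turns from a blood-forming organ into a metabolic one. Milk is rich in fat, and the suckling liver oxidises fatty acids, makes ketone bodies and glucose, and restrains the synthesis of cholesterol and fatty acids. The nuclear receptor PPARA switches on fatty acid oxidation genes and the hormone gene *Fgf21*, the factors SREBP-1 and SREBP-2 control lipid and sterol synthesis, and the factors ATF4 and CHOP carry the response to amino acid and endoplasmic reticulum stress. Granulocytes, erythroid cells and megakaryocytes still mature in the liver at this age. In whole tissue RNA, fewer cells of a type and less RNA per cell cannot be told apart.

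The arrays of the 2 groups differed in brightness. The mean intensity was 398, 406 and 338 on the RD arrays, and on the HFD arrays it was lowest at 188, had a median of 216 and was highest at 438. A single HFD array, 1R-1, was as bright as the RD arrays, while the others lay at or below 255. Between 40.5% and 40.9% of the probes were detected on the RD arrays and between 34.0% and 37.8% on the HFD arrays, with no overlap. The first principal component of the 24 livers of the series carried 53.3% of the variance and put all 12 HFD livers on one side (18.1 to 52.0) and all 12 RD livers on the other (−48.1 to −29.1). Array 1R-1 was the HFD liver nearest to the RD side, at 18.1. The dimmest RD liver, a female exposed to metformin with a mean intensity of 174, lay with the RD livers at −35.4, and the bright HFD metformin array 10K-1 (374) lay with the HFD livers at 42.8. Array 1T-1 stood apart from the other HFD control livers on the second component (51.4 against −4.64 to 17.8), and its correlations with them were 0.958 to 0.965, against 0.976 to 0.990 among the other 5. For the genes where 1T-1 lay far from the other HFD livers, the difference without it is given too. *Apoa1*, the main apolipoprotein of high density lipoprotein, and *Afp*, the fetal albumin, were high on all 9 arrays (14.87 to 15.58 and 12.52 to 14.21 on the log2 scale), as a neonatal liver should have them. The female-specific RNA *Xist* stayed between 4.31 and 4.47, which fits the male labels.

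**Figure D1:**
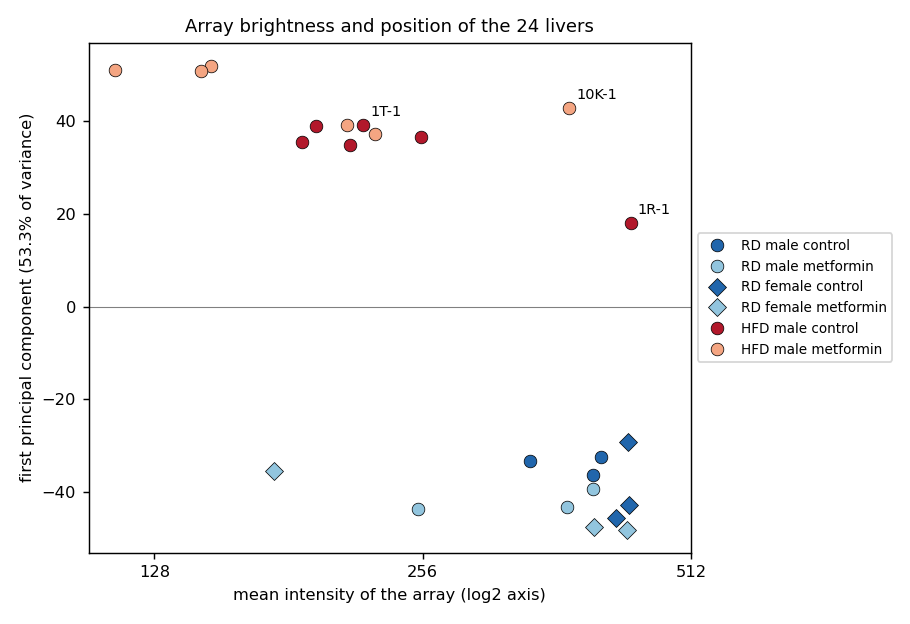
Mean intensity of each of the 24 liver arrays (x axis, log2 spacing) against its place on the first principal component (y axis, arbitrary units), coloured by diet and treatment, with females as diamonds. HFD arrays lie between 18.1 and 52.0 and RD arrays between −48.1 and −29.1, and the bright arrays 1R-1 (438) and 10K-1 (374) and the dim RD array (174) lie with their own diet.

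After background correction and quantile normalisation of the 24 livers together, 10046 genes were tested, each by its brightest probe. A gene was called where limma's adjusted p was under 0.05. In HFD livers 2072 genes were higher, which is 20.6% of those tested, and 1721 were lower, which is 17.1%. For 1605 of the higher genes (16% of all tested) every HFD liver lay above every RD liver, and for 1335 of the lower genes (13.3%) every HFD liver lay below. The median difference of all genes was 0.04 on the log2 scale, and among called genes the median size was 0.65. Differences of at least 1, meaning a 2-fold change or more, were rarer among the higher genes (168) than among the lower ones (438). The split depends on the scaling. With each array centred on the median of all its probes in place of quantile normalisation, 32 genes were higher and 2332 lower, and the median of all genes stood at −0.57, so differences under that scaling have to be read against −0.57. With each array centred on the median of the detected probes instead, a setting chosen after seeing the data, 2217 genes were higher and 1220 lower, with an all-gene median of 0.16. The directions given below hold relative to the bulk of genes. Of the 140 called genes named below, 91 stayed called with centring on the median of all probes. All of the others had been called higher, *Rgs16*, *Lgals4*, *Cyp4a14*, *Fgf21*, *Aldoa*, *Junb* and *Irs2* among them. Counts of list members called below are to be read against 20.6% higher and 17.1% lower of all genes.

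The bright HFD array was also read on its own. Of the 2072 genes called higher, 2053 (99.1%) were above the RD mean in 1R-1 alone and 1967 (94.9%) were above every RD liver. Of the 1721 called lower, 1687 (98%) were below the RD mean in 1R-1 and 1548 (89.9%) were below every RD liver. Because 1R-1 was among the arrays that made the calls, these shares were partly fixed by them, and the part of brightness in the differences was not tested by them. With 1R-1 as the only HFD liver, 469 genes were called higher and 463 lower. When the mean intensity of each array entered the fit as a covariate, 1992 genes were called higher and 1376 lower.

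Genes were also compared by their other probes. Of the 1435 called genes with a further probe that passed the detection filter, 626 (43.6%) had another probe called in the same direction and 155 (10.8%) had one called in the opposite direction. A difference at 1 probe thus did not always stand for the whole gene, and many of the disagreeing probes are named below. Others, none of them called, belonged to *Csf1r* (0.03), *Mrps5* (−0.07), *Top2a* (−0.19), *Egfl7* (−0.29), *Fech* (0.12) and *Tyms* (0.26 and 0.26). For *Egfl7*, *Fech* and *Tyms* a further probe was also called in the direction given below.

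The 12 largest differences upwards, among called genes with separate groups, included *Apoa4*, *Ffar4* and *Cyp4a31*, which take part in lipid handling. *Apoa4*, an apolipoprotein of triglyceride-rich particles, read 8.04, 6.32 and 7.27 in the RD livers and from 11.33 to 12.71, with a median of 12.16, in the HFD livers. The groups were far apart, with 30.1-fold more signal in HFD (log2 difference 4.91 ± 0.44 SE, adjusted p = 5.18e-08). Both other probes of *Apoa4* were also higher, by 4.47 and 3.90. *Ffar4*, a receptor for long-chain fatty acids, read 5.52, 5.54 and 5.56 in RD and 7.32 to 9.52 in HFD, a difference of 2.66 ± 0.36 (adjusted p = 6.51e-06). *Cyp4a31*, a fatty acid omega-hydroxylase, was higher by 2.14 ± 0.36 (1.83 without 1T-1), and *Cyp17a1*, an enzyme of steroid synthesis, by 2.18 ± 0.45 (1.85 without 1T-1). *Cyp17a1* varied widely among the HFD livers, from 5.51 in 1R-4 to 9.03 in 1T-1, and its lowest HFD value lay next to the highest RD value of 5.47 (1B).

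The stress genes *Trib3* and *Ddit3* belonged to the same 12, with differences of 1.93 and 1.85. The others were *Rgs16*, a brake on G-protein signalling (2.12), the pseudokinase gene *Nrbp2* (2.04, and 1.64 without 1T-1), the galectin gene *Lgals4* (1.84, and 1.72 without it), *Nlrp12*, a sensor of innate immunity (1.83), and *Dync1h1*, the heavy chain of dynein (1.73). *Psmd8*, a subunit of the proteasome, was higher by 1.99 ± 0.55 in a comparison that rested on 1 RD liver: the RD values were 8.77, 9.52 and 6.33 (5C), the HFD values 9.97 to 10.38, and without 5C the gene was no longer called (1.05, adjusted p = 0.131). In 1R-1 alone the 12 genes exceeded the RD mean by 1.27 (*Cyp17a1*) to 4.94 (*Apoa4*). Only genes with separate groups were taken, so the direction in 1R-1 was fixed in advance. Diet, study and brightness cannot be told apart for these genes. Under array-median centring *Rgs16*, *Lgals4* and *Psmd8* were not called (adjusted p = 0.0747, 0.0627 and 0.18).

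The 12 largest differences downwards held a pair of eosinophil genes and many enzymes of the hepatocyte. *Prg2*, the major basic protein of eosinophil granules, read 11.52, 11.69 and 11.88 in RD and 6.397 to 7.48, median 6.71, in HFD, 29.9-fold less (−4.90 ± 0.23, adjusted p = 1.58e-12). *Ear6*, an eosinophil ribonuclease, was detected on only 2 of the 6 HFD arrays. Its HFD mean of 4.883 lay under 4.98, the mean of the lowest detected signals of the HFD arrays, so its difference of −3.01 is not an exact size. *Car3*, a carbonic anhydrase, read 11.93, 10.95 and 11.01 in RD and 8.07 to 8.75 in 5 HFD livers, but 4.39 in 1T-1. It was not detected on 1T-1, whose lowest detected signal was 5.02, so its difference of −3.51 is not an exact size. The difference without 1T-1 was −2.84. *Hao2*, a peroxisomal hydroxy-acid oxidase, had RD values of 8.61, 8.73 and 9.13 and HFD values of 4.85 to 6.63, so the groups were well separated, with detection on 5 of 6 HFD arrays (−2.96 ± 0.30, adjusted p = 2.49e-07). The carboxylesterase genes *Ces3a*, *Ces1b* and *Ces3b* were lower (−2.72, −2.68 and −2.66), as were *Aadac*, another esterase of the endoplasmic reticulum (−2.65), and *Esd*, esterase D (−2.44). *Aadac* was detected on 1 of 6 HFD arrays with a mean of 4.784 there, also under 4.98, so its size and its place among the 12 are not exact. A second, dimmer probe of *Esd* differed by −0.36 and that of *Ces1b* by −0.37, and neither was called. *Ugt2b34*, a glucuronosyltransferase, differed by −2.58 and *Afm*, a plasma carrier of vitamin E, by −2.40 (−2.30 without 1T-1). *ND4L*, a complex I subunit encoded by mitochondrial DNA, differed by −3.13. In 1R-1 alone the differences from the RD mean ran from −1.94 (*Ugt2b34*) to −4.22 (*Prg2*). Their direction was again fixed by the choice of genes with separate groups. The array was as bright as the RD arrays but had fewer probes detected than any of them, and the part of brightness was not tested. Diet and study remain the same split.

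**Figure D2:**
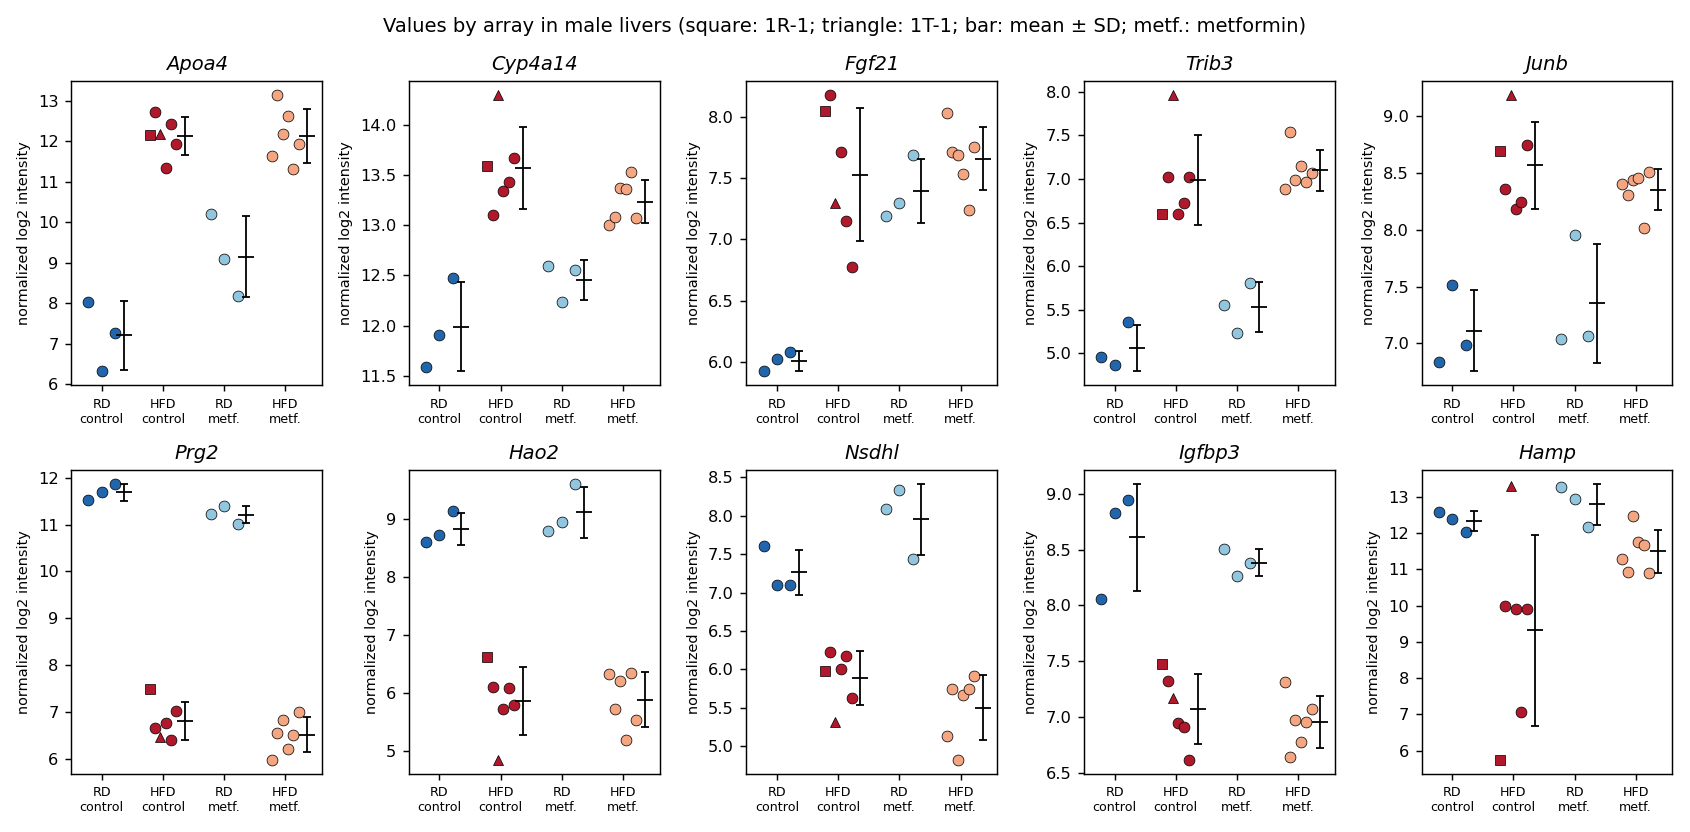
Normalised log2 intensity of 10 genes on each male liver array by group, with 1R-1 as a square, 1T-1 as a triangle, and bars for the mean ± SD. The 3 RD and 6 HFD control livers do not overlap for any gene shown except *Hamp*, where 1T-1 (13.30) lies above the RD livers and 1R-1 (5.74) far below.

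Lipid transport and fatty acid oxidation were considered next, as the PPARA system answers to fat. Of 20 tested PPARA target and peroxisomal genes, 9 were higher and 2 lower in HFD livers, against 20.6% and 17.1% of all genes, with a median difference of 0.33 against 0.04, and the median was 0.43 for 1R-1 alone. *Cyp4a14*, a fatty acid omega-hydroxylase, read 11.59, 11.91 and 12.47 in RD and 13.10 to 14.30, median 13.51, in HFD. No HFD liver reached down to the RD range, and the difference was 1.58 ± 0.21 (adjusted p = 6.44e-06). *Fgf21*, a hepatic hormone of fasting and of suckling, read 5.92, 6.02 and 6.08 in RD and 6.78 to 8.18 in HFD (1.52 ± 0.33, adjusted p = 0.000884). *Txnip*, an inhibitor of thioredoxin, was higher by 1.42 and *Crat*, carnitine acetyltransferase, by 1.09, although the 2 dimmer probes of *Crat* were not called (0.42 and −0.26). *Acot3*, a peroxisomal thioesterase, went the other way (−0.87 ± 0.19), but by only −0.18 in 1R-1. Relative to the all-gene median of −0.57, the list's median of −0.37 was above it under array-median centring as well. Under that centring *Cyp4a14*, *Fgf21*, *Txnip* and *Crat* were not called (adjusted p = 0.0885, 0.232, 0.261 and 0.414). As elsewhere, the HFD livers came from the other study and mostly from dimmer arrays.

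The enzymes of mitochondrial fatty acid oxidation and ketogenesis did not share a direction. Of 20 tested, 4 were higher and 8 lower, beside 20.6% and 17.1% of all genes, with a median of −0.08. The trifunctional protein gene *Hadhb* differed by −1.30 ± 0.15 (adjusted p = 1.4e-06), the dehydrogenase genes *Acadl* and *Hadh* by −1.48 and −1.19 (*Hadh* on 4 of 6 HFD arrays), and the short-chain dehydrogenase *Acads* by 1.00. A second probe of *Acadl* differed by 0.00 and one of *Acads* by 0.14, so these 2 differences were seen at a single probe each. Study of origin and brightness split the same way as diet for all 20 genes.

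Among 24 genes of apolipoproteins and lipoprotein handling, 5 were higher and 3 lower, beside 20.6% and 17.1% of all genes. The median was 0.11. Beside *Apoa4*, *Apoc3*, an inhibitor of triglyceride clearance, was higher by 1.33 ± 0.31, and *Apon* and *Apof*, minor plasma apolipoproteins, were lower (−1.504 ± 0.22 and −0.60 ± 0.13). *Apoc3* was higher by 0.67 in 1R-1 and was no longer called when the 4 animals of code 1T were left out. *Apoa1* read 15.12, 15.12 and 15.21 in RD and 14.87 to 15.58 in HFD, so the groups overlapped (0.20 ± 0.16, adjusted p = 0.344), and its direction turned under 4 alternatives. For the apolipoproteins too, diet cannot be told apart from study.

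Of 17 tested genes of cholesterol synthesis 7 were lower and 1 was higher, against 17.1% and 20.6% of all genes, with a median of −0.60, and in 1R-1 the median was −0.31. *Nsdhl*, a sterol dehydrogenase, read 7.60, 7.10 and 7.09 in RD and 5.31 to 6.22, median 5.99, in HFD (−1.38 ± 0.28, adjusted p = 0.000518). *Ebp*, the sterol isomerase, differed by −0.90 ± 0.14 and *Dhcr7*, the last enzyme of the pathway, by −0.97 ± 0.26. *Idi1*, the isopentenyl isomerase, was not detected on any HFD array, and its signal was at least 1.85-fold lower there (adjusted p = 0.000145). The exception was *Srebf2*, which encodes the factor that drives the pathway, higher by 0.55 ± 0.15 (0.62 without 1T-1), with a second probe not called (0.26), with −0.19 under array-median centring, and not called without 3B (adjusted p = 0.0527). The list's median was −0.17 without 1T-1 and −0.19 when only the 2 animals of code 1R stood for HFD, and *Dhcr7* was no longer called without 5C (adjusted p = 0.0595). These genes were read on dimmer HFD arrays from another study, and neither cause can be told apart from diet.

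Fatty acid and triglyceride synthesis split evenly, with 4 genes higher and 5 lower of 23, beside 20.6% and 17.1% of all genes. The median was 0.03. *Srebf1*, the lipogenic factor, was detected on 5 of 6 HFD arrays and read 7.35, 7.12 and 7.05 in RD and 4.65 to 6.12 in HFD (−1.74 ± 0.305, adjusted p = 0.000129). *Elovl2*, an elongase of polyunsaturated fatty acids, differed by −1.41 ± 0.18, and *Agpat2*, an acyltransferase of triglyceride synthesis, by −0.87 ± 0.17 with a second probe at 0.12 that was not called. *Mlxipl*, which encodes the carbohydrate-responsive factor ChREBP, was higher by 0.77 ± 0.14, and its second probe (−0.30) was not called. *Pnpla2*, the triglyceride lipase, was higher by 1.22 ± 0.26, with 1T-1 at 10.70 and the other 5 HFD livers at 8.78 to 9.04, still above the RD livers at 7.95 to 8.16 (0.93 without 1T-1). *Scd1*, the desaturase, overlapped between groups (−0.42 ± 0.25, adjusted p = 0.209). In bile acid metabolism 2 of 12 genes were higher and 3 lower. *Cyp7a1*, the rate-limiting enzyme of bile acid synthesis, and *Abcb11*, the bile salt export pump, were lower (−1.28 ± 0.30 and −1.09 ± 0.17), and *Cyp7b1* and *Cyp27a1*, of the alternative route, were higher (0.58 ± 0.17 and 1.11 ± 0.36), though neither was called without 3B (adjusted p = 0.0558 and 0.0955). The lowest HFD value of *Cyp7b1*, 5.88, lay under the highest RD value of 5.92. *Cyp27a1* rested partly on 1T-1, which read 11.12 against 8.56 to 9.06 in the other HFD livers. Without 1T-1 its difference was 0.72 (adjusted p = 0.00337), and the gene lost its call under the authors' normalisation and with brightness as a covariate. With all HFD livers, the other probes of *Cyp27a1* were also called higher (0.84 and 1.19, adjusted p = 0.036 and 0.00814). None of these lipid differences can be assigned to diet rather than study.

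Of 15 tested genes of glycolysis and the pentose phosphate pathway, 10 were higher and 1 was lower, against 20.6% and 17.1% of all genes, with a median of 0.58 (0.41 in 1R-1). *Aldoa*, an aldolase, read 8.36, 8.34 and 8.77 in RD and 9.16 to 10.58 in HFD, a difference of 1.5035 ± 0.26 (adjusted p = 9.86e-05). It was smallest in 1R-1, at 0.67 above the RD mean. *Taldo1*, transaldolase, was higher by 0.86, *Tpi1*, triosephosphate isomerase, by 0.70 and *Ldha*, lactate dehydrogenase, by 0.67 (0.74 without 1T-1). A dim further probe of *Tpi1* was called in the other direction (−0.50). Under array-median centring the list's median was −0.17, which is above the all-gene median of −0.57 but below 0. Gluconeogenesis and glycogen genes went both ways, with 6 higher and 4 lower of 15. *Fbp1*, fructose bisphosphatase, was higher by 0.79 ± 0.16. *Slc2a2*, the hepatic glucose transporter GLUT2, was lower at all 3 of its probes (−1.29, −0.78 and −0.93), and *Gys2*, the liver glycogen synthase, differed by −1.19 ± 0.24 with a second probe at −0.37 that was not called. *Mdh1*, the cytosolic malate dehydrogenase, differed by −0.98 ± 0.23. Study and array brightness differed between the same livers.

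Hormone signalling genes of the IGF and insulin axis, 19 in all, had 6 higher and 5 lower members, beside 20.6% and 17.1% of all genes. *Igfbp3*, the main carrier of IGF-1 in plasma, read 8.06, 8.83 and 8.94 in RD and 6.62 to 7.48, median 7.06, in HFD (−1.54 ± 0.20, adjusted p = 4.95e-06). *Igfbp7*, a related binding protein, differed by −1.18 ± 0.17 and *Igf1* itself by −0.68 ± 0.24. The *Igf1* difference rested partly on 1T-1, at 9.13 against 10.45 to 10.68 in the other HFD livers. Without 1T-1 it was −0.44 (adjusted p = 0.0219), and without 1B it was not called (−0.50, adjusted p = 0.182), while a second probe gave −1.22 (adjusted p = 0.000925). *Igfbp2*, the binding protein of the fetal and fasted liver, was higher by 0.98 ± 0.16, and *Irs2*, the insulin receptor substrate of liver, by 1.46 ± 0.31. Whether these reflect diet or the study of origin cannot be told apart.

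Genes of the integrated stress response and endoplasmic reticulum stress included 8 higher and 3 lower of 20, beside 20.6% and 17.1% of all genes. The median was 0.17. *Trib3*, a pseudokinase induced by ATF4 and CHOP, read 4.96, 4.86 and 5.36 in RD and 6.60 to 7.97, median 6.87, in HFD. All HFD livers lay above all RD livers, 1T-1 the furthest, and the difference was 1.93 ± 0.23 (adjusted p = 2.18e-06), or 1.73 without 1T-1. *Ddit3*, which encodes CHOP, read 5.59, 5.80 and 5.56 in RD and 6.93 to 8.27 in HFD (1.85 ± 0.25), and its second probe was higher by 0.85 (adjusted p = 0.0104). *Ppp1r15a*, a phosphatase subunit that ends the response, was higher by 1.09 ± 0.18. *Phgdh*, of serine synthesis, was lower (−1.39 ± 0.30) and was detected on 4 of 6 HFD arrays. In 1R-1 alone *Trib3*, *Ddit3* and *Ppp1r15a* exceeded the RD mean by 1.54, 1.28 and 0.68, on a bright array that is still of the HFD study.

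The promoters of *Trib3*, *Ddit3* and *Fgf21* are shown because these 3 genes were higher together and are textbook targets of ATF4 or CHOP. RefSeq windows of 300 bases on GRCm38.p6, most of each before the annotated start and the rest after it, were searched on both strands for TGATGNAA, the shared letters of the C/EBP-ATF response element (TTNCATCA on the other strand). The letters were found in 4.51% of the 27025 genes with a window and in 2.76% of the 8165 tested genes with one. Among the 19 tested stress genes with a window 4 held them, namely 2 of the 7 called higher and 2 of the other 12. *Fgf21* was not on the stress list. Capitals mark the match, and each sequence runs 5′ to 3′ on the strand of the gene.
Trib3, chr2:152344011-152344310, minus strand: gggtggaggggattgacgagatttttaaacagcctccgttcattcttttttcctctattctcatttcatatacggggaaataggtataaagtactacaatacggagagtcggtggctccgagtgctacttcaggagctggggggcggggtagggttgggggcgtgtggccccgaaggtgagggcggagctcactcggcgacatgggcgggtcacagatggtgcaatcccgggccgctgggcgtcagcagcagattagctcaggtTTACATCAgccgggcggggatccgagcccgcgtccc
Fgf21, chr7:45615441-45615740, minus strand: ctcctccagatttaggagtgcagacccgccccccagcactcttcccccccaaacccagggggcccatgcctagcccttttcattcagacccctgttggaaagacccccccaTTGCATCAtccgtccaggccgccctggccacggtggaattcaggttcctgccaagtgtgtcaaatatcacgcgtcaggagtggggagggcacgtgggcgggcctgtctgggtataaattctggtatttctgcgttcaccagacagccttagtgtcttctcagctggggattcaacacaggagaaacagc
Ddit3, chr10:127290543-127290842, plus strand: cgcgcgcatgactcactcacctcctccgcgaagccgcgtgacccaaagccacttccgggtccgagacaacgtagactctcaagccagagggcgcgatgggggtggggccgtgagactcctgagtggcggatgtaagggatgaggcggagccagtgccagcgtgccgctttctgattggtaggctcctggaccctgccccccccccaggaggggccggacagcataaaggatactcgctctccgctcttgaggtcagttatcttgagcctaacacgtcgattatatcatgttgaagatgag
The windows of *Trib3* and *Fgf21* hold 1 match each, from base 265 and base 112 of the window, and that of *Ddit3* holds none, which says only that these letters are not in this window.

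Immediate-early genes, which respond within minutes to growth factors, stress or handling, had the highest list median at 0.75 (0.69 in 1R-1). Of 16 tested, 8 were higher and 1 lower, beside 20.6% and 17.1% of all genes. *Junb*, a subunit of AP-1, read 6.83, 7.52 and 6.99 in RD and 8.18 to 9.19, median 8.53, in HFD (1.46 ± 0.22, adjusted p = 2.26e-05). *Zfp36*, which speeds the decay of cytokine mRNAs, was higher by 1.25 ± 0.20, *Ier3* by 1.18 ± 0.21 and the AP-1 gene *Fosl2* by 0.90 ± 0.19. *Fos* overlapped between the groups, with RD values of 5.27, 7.22 and 5.36 and HFD values of 6.12 to 7.19 (adjusted p = 0.143). Without 3B *Fos* was called (1.28, adjusted p = 0.00296). Under the authors' normalisation the list's median was 0.28. Under array-median centring *Junb*, *Zfp36*, *Ier3* and *Fosl2* were not called (adjusted p = 0.167, 0.383, 0.397 and 0.531). How the 2 sets of animals were handled before sampling is not given in the sources used here.

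Heat shock and chaperone genes had 5 higher and 8 lower members of 20, beside 20.6% and 17.1% of all genes. Their median was −0.25 (−0.25 in 1R-1). *Hspe1*, the mitochondrial co-chaperonin, read 10.60, 10.77 and 10.94 in RD and 8.95 to 9.29 in HFD (−1.61 ± 0.15, adjusted p = 1.06e-07). *Hsp90aa1*, the stress-inducible HSP90, differed by −1.62, *Dnajb9*, a chaperone of the endoplasmic reticulum, by −1.45 at its brightest probe and −1.47 at its second, and *Pdia6*, a disulphide isomerase, by −1.22 with a second probe at 0.54 that was not called. The list's median was −0.10 when the share of detected probes entered the fit. In the oxidative stress list 5 genes were higher and 7 lower of 19. *Cat*, catalase, read 11.44, 11.30 and 11.54 in RD and 8.95 to 9.72 in HFD (−2.07 ± 0.20, adjusted p = 1.33e-07), with a dimmer probe at −0.55 that was not called. *Txn1*, thioredoxin, and *Gclc*, of glutathione synthesis, differed by −1.68 and −1.36. *Keap1*, the repressor of the antioxidant factor NRF2, was higher at all 4 of its probes, by 0.59 to 1.49. The split by study and brightness holds for both of these lists.

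The respiratory chain and ATP synthase are built of subunits in fixed proportions. Of 66 such genes 21 were higher and 15 lower, where 20.6% and 17.1% of all genes were, with a median of 0.12 and a range of −1.90 to 1.06. *Atp5a1* and *Atp5b* encode the partner subunits of the catalytic head of ATP synthase. *Atp5a1* read 9.83, 10.39 and 10.74 in RD and 8.15 to 8.69 in HFD (−1.90 ± 0.23), while *Atp5b* read 13.89, 13.73 and 13.99 in RD and 14.09 to 14.33 in HFD (0.37 ± 0.10, not called without 3B, adjusted p = 0.058). *Cox7b* of complex IV and *Ndufb5* of complex I were lower (−1.71 and −1.43), and *Ndufa3* of complex I was higher at both its probes (0.95 and 1.08). Within the 4-subunit succinate dehydrogenase *Sdhc* was higher by 0.69 and *Sdhd* lower (−1.51 ± 0.26). *Idh2*, the mitochondrial isocitrate dehydrogenase, differed by −2.02 ± 0.21. Mitochondrial ribosomal proteins also differed both ways, with 16 higher and 8 lower of 53 and values from −1.61 (*Mrps15*) and −1.22 (*Mrps18c*) to 0.63 (*Mrps34*) and 0.74 (*Mrps5*). Cytosolic ribosomal proteins had 14 higher and 4 lower of 49. The same opposed values stood in 1R-1, with −2.17 for *Atp5a1* and 0.45 for *Atp5b*. Whether they follow diet, animals, RNA or array processing was not tested.

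**Figure D3:**
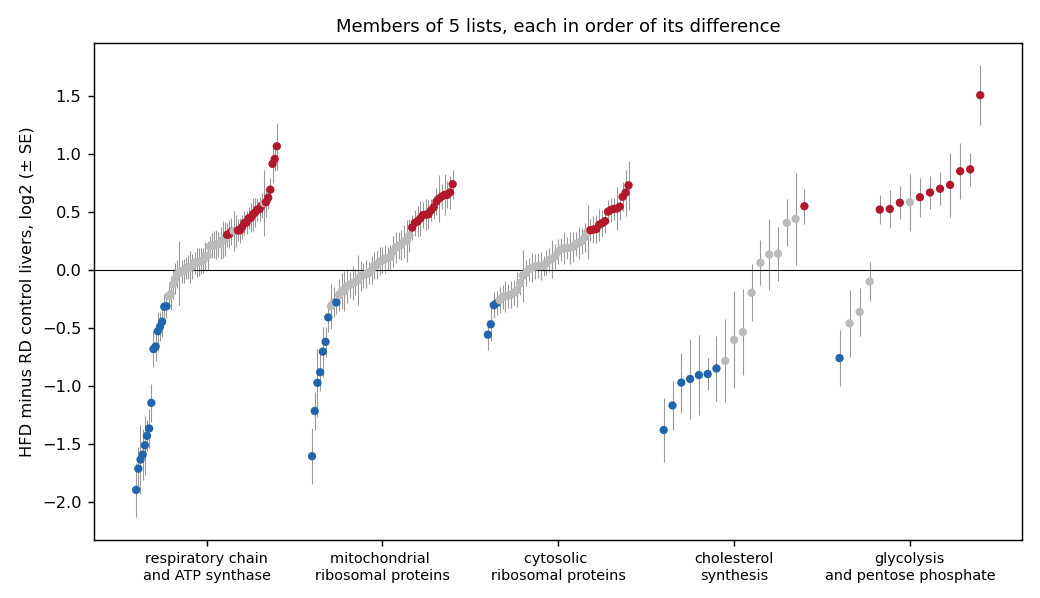
Difference between HFD and RD control livers (y axis, log2, ± SE) for each tested gene of 5 lists, placed in order of its difference, with called genes in red (higher) or blue (lower). The respiratory chain runs from −1.90 to 1.06 and the mitochondrial ribosome from −1.61 to 0.74, while cholesterol synthesis lies mostly below 0 and glycolysis mostly above.

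Of 18 genes of branched-chain amino acid breakdown 6 were lower, 2 were higher and 10 were not called, beside 17.1% lower and 20.6% higher of all genes, with a median of −0.27 (−0.37 in 1R-1). *Dld*, the dehydrogenase shared by the keto-acid complexes, read 7.71, 7.67 and 7.94 in RD and 5.17 to 5.89 in HFD (−2.21 ± 0.19, adjusted p = 3.65e-08). *Aldh6a1* of valine breakdown and *Acadsb* of isoleucine breakdown differed by −1.69 and −1.66. *Mccc1*, of leucine breakdown, was not detected on any HFD array and was at least 1.77-fold lower there. In the wider list of the urea cycle and amino acid breakdown 7 of 35 genes were higher and 7 lower. *Otc*, a urea cycle enzyme, differed by −1.73 ± 0.23 and was detected on 3 of 6 HFD arrays, and *Kmo*, of tryptophan breakdown, by −1.70 ± 0.19. *Hpd* and *Hgd*, which follow each other in tyrosine breakdown, were higher by 1.23 and 0.79. A second probe of *Hgd* was not called (0.19). Here again diet and study are 1 and the same split, and several of the lower genes were dim on the HFD arrays.

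Among 33 cytochrome P450 and xenobiotic genes 6 were higher and 9 lower, beside 20.6% and 17.1% of all genes. *Ugt2b1* read 8.52, 8.59 and 8.64 in RD and 6.05 to 7.18 in HFD (−2.12 ± 0.21), and *Cyp4f14*, which hydroxylates fatty acids and leukotrienes, differed by −1.35. *Cyp2d9* and *Cyp2d10* were higher by 1.49 and 0.83, in a family of near-identical genes whose probes may not be specific. Of 20 mature hepatocyte genes 3 were higher and 6 lower, led by *Ces3a*, given above, and *Serpina6*, the plasma carrier of corticosteroids (−2.34 ± 0.29). *Aldh1a1*, of retinoic acid synthesis, was not detected on any HFD array and at least 1.97-fold lower. *Uox*, urate oxidase, was higher by 0.78, with a dim second probe at −0.22. *Alb* was higher by 1.00 ± 0.28 at a probe that read only 6.73 to 8.69, and lost its call without 1B (adjusted p = 0.108) or with the share of detected probes as a covariate. Of 12 fetal genes 3 were higher and 1 was lower: the imprinted gene *Dlk1* was lower (−1.48 ± 0.22) and the imprinted gene *Peg3* higher (1.73 ± 0.33), as was the proteoglycan gene *Gpc3* (1.30 ± 0.21). *Afp* overlapped (−0.40 ± 0.32, adjusted p = 0.343). Which part of these differences belongs to diet, study or brightness cannot be told apart.

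Secreted plasma proteins of complement and coagulation had 5 higher and 11 lower members of 31, beside 20.6% and 17.1% of all genes. Their median was −0.24 (−0.14 in 1R-1). *Serpind1* and *Serpinc1*, the thrombin inhibitors heparin cofactor II and antithrombin, differed by −1.23 ± 0.15 and −1.53 ± 0.23, though a second probe of *Serpinc1* gave 0.23 and was not called. *Mbl2*, a mannose-binding lectin, differed by −1.002 ± 0.16. *C4b* was higher by 1.26 ± 0.19 at its brightest probe, and the other 2 probes (−0.66 and −0.41) were not called. The median of this list was −0.05 with only the 2 animals of code 1R. Acute phase genes showed 4 higher and 4 lower of 22, among them *Apcs*, serum amyloid P (−1.19 ± 0.18), *Saa4* (−0.69 ± 0.17) and *Socs3*, the feedback inhibitor of interleukin-6 signalling (0.87 ± 0.15). Brightness and study again ran with diet.

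*Hamp*, which encodes the iron hormone hepcidin, differed by −3.02 ± 0.93 (adjusted p = 0.0138) but was the most scattered of the genes named. It read 12.59, 12.39 and 12.03 in RD. In HFD it read 5.74 in 1R-1, 9.99 in 1R-4, 13.30 in 1T-1, 9.90 in 1T-2, 7.08 in 1T-3 and 9.91 in 1T-4. The groups overlapped through 1T-1, without which the difference was −3.81. *Hamp* was no longer called without 1B (−2.89, adjusted p = 0.0545). The call was also lost with the erythroid and granulocyte levels as a covariate (adjusted p = 0.116) and with the 2 groups fitted alone (adjusted p = 0.0723). In the metformin livers *Hamp* was not called (−1.30, adjusted p = 0.256). Diet, study and brightness cannot be told apart for this gene either.

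**Figure D4:**
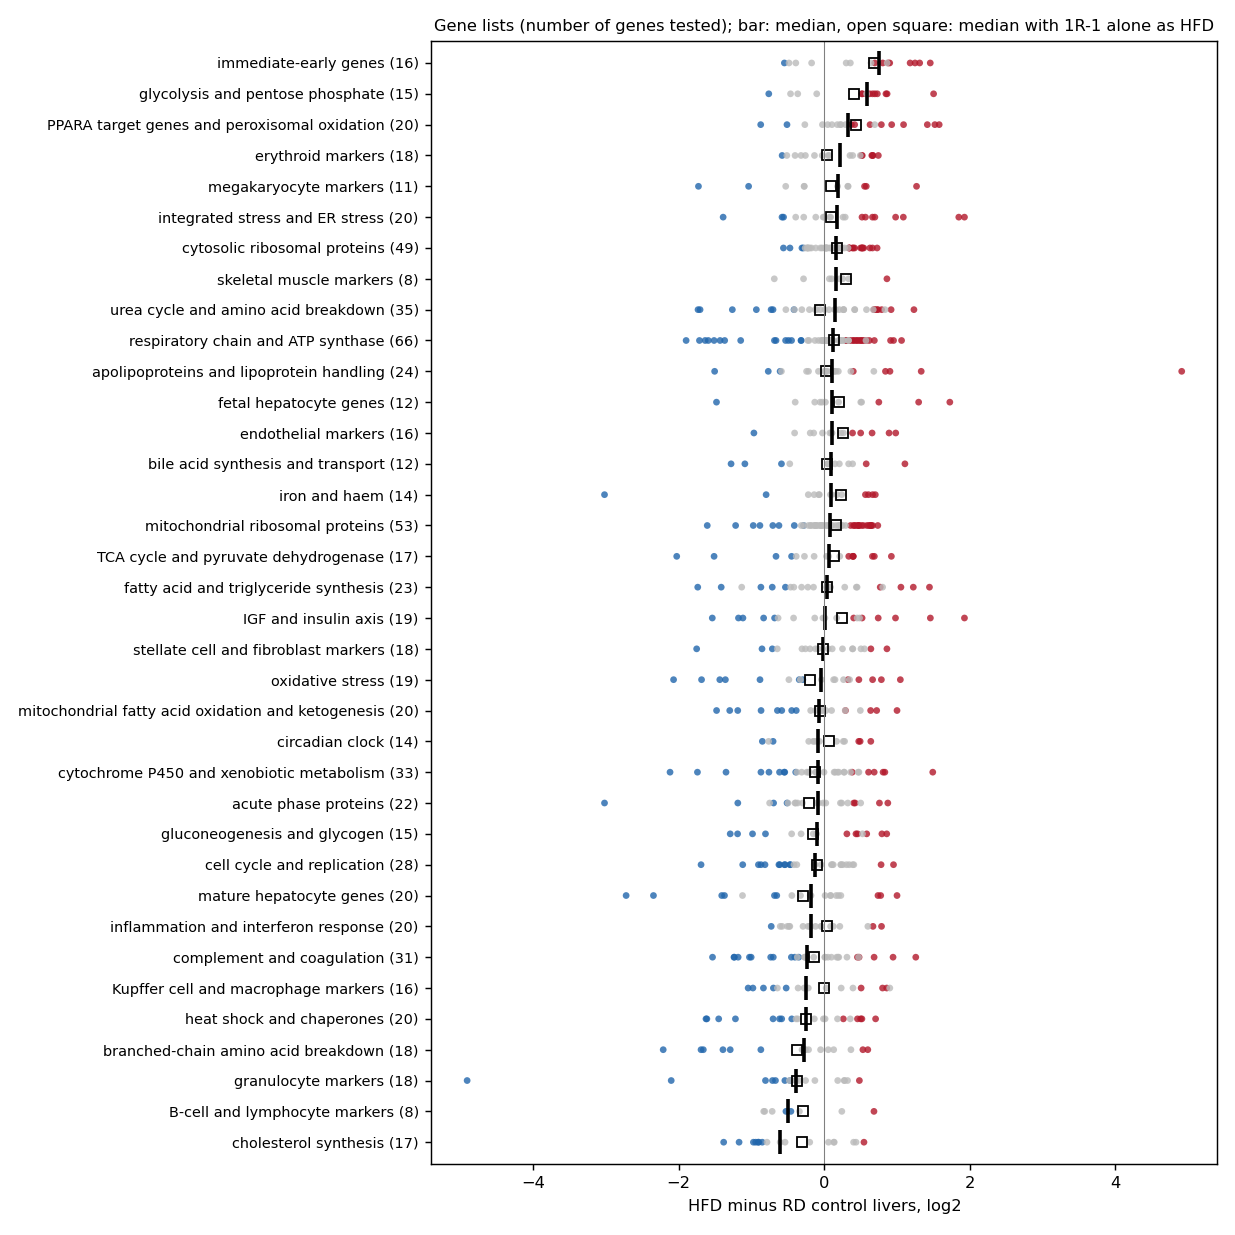
Difference between HFD and RD control livers (x axis, log2) for each tested gene of the lists with at least 8 tested genes, with called genes in red or blue, list medians as black bars and medians with 1R-1 as the only HFD liver as open squares. Immediate-early genes (0.75) and glycolysis (0.58) have the highest medians and cholesterol synthesis (−0.60) the lowest, against 0.04 for all genes.

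Of 18 granulocyte markers 7 were lower, 1 was higher and 10 were not called, with a median of −0.39. Of all genes 17.1% were lower and 20.6% higher. The mean level over the list was 9.75 to 10.04 in RD and 9.08 to 9.58 in HFD, without overlap. That mean includes the eosinophil genes *Prg2* (−4.90) and *Epx*, and the level without them was not computed. Eosinophil genes stood out, by a choice made after their values were seen. *Prg2* and *Ear6* are given above, and *Epx*, eosinophil peroxidase, and *Prg3*, a second major basic protein, were detected on all 3 RD arrays and on none of the 6 HFD arrays. Their signals were at least 3.06-fold and at least 3.25-fold lower in HFD (adjusted p = 1.53e-07 and 1.25e-10). The neutrophil genes *S100a8* and *Ngp* differed by less (−0.71 ± 0.12 and −0.67 ± 0.16). Of 18 erythroid markers 6 were higher and 1 was lower, with a median of 0.21 that became −0.06 when only the 2 animals of code 1R stood for HFD. The mean level of the erythroid list overlapped, at 9.42 to 9.67 in RD and 9.24 to 10.06 in HFD. The erythroid factor *Gata1* was higher by 0.67 ± 0.19, the mitochondrial iron importer *Slc25a37* by 0.74 ± 0.20 and *Dmtn* by 0.67 ± 0.21, and *Fech*, the last enzyme of haem synthesis, was lower (−0.58 ± 0.19). Each of *Gata1*, *Dmtn* and *Fech* lost its call without a single RD liver, 3B, 5C and 1B in turn (adjusted p = 0.052, 0.112 and 0.115). These shifts, too, lie between livers of 2 studies. With the erythroid and granulocyte levels as a covariate 1893 genes were called higher and 1765 lower.

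Other cell types gave mixed values. Of 11 megakaryocyte markers 3 were higher, with *Vwf* at 1.27 ± 0.23, and 2 lower, with *Pf4* at −1.73 ± 0.36. Of 16 macrophage markers 3 were higher and 5 lower, with *C1qa* at 0.86 and *Lyz2* and *Csf1r* at −0.98 and −0.70. Of 16 endothelial markers 5 were higher, such as *Egfl7* and *Stab2* (0.89 and 0.98), and 1 was lower, *Lyve1* (−0.96). Of 18 stellate cell and fibroblast markers 2 were higher and 3 lower, with the collagen gene *Col3a1* at −1.75 ± 0.35 and detection on 5 of 6 HFD arrays. Of 5 tested pancreas and gut markers 1 was higher and 2 were lower. One of the lower was *Pnliprp1*, a pancreatic lipase-related gene (−2.24 ± 0.62, not called without the animals of code 1T). The tested marker *Amy2a5* was bright in both groups, with means of 12.38 in RD and 12.19 in HFD, and was not called (adjusted p = 0.562). Of the 18 such markers on the array 10 were detected on at least 1 of the 9 arrays. The other 8, with *Cpb1*, *Ctrb1* and *Ins2* among them, were detected on none. Of 11 adipocyte markers 6, with *Adipoq*, *Fabp4* and *Plin1* among them, were likewise never detected. Of the 2 tested, *Car3*, given above, was lower and the other was not called. The part of other cell types in the differences above was not tested. Of 28 cell cycle and replication genes 11 were lower and 2 higher, beside 17.1% and 20.6% of all genes. *Pcna* differed by −1.69, not an exact size, since it was detected on 4 of 6 HFD arrays and its HFD mean of 4.965 lay under 4.98. *Aurkb* and *Tyms* differed by −1.12 and −0.81, and *Top2a*, which overlapped between the groups, by −0.47 (adjusted p = 0.0147), a call lost without 1B or without 3B (adjusted p = 0.0942 and 0.0772). The Y-linked genes *Eif2s3y* and *Kdm5d* were lower in the HFD males (−1.23 ± 0.17 and −0.98 ± 0.155), in animals that are male in both groups. The Y-linked gene *Uty* overlapped and was not called (−0.35, adjusted p = 0.175). *Kdm5d* was detected on 3 of 6 HFD arrays and was not called with centring on the detected probes (adjusted p = 0.0604).

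The 9 livers of males exposed to metformin before birth, 6 HFD and 3 RD, repeat the contrast on other animals. They share no array with the control livers but carry the same split of study. Codes are shared here too, 10K and 3R among the HFD livers and E by the RD livers 1E and 3E. There 2670 genes were higher in HFD (26.6%) and 2234 lower (22.2%). Of the genes called higher in control livers 1587 were also called higher with metformin (76.6% of the control calls and 59.4% of the metformin calls), and 1350 were called lower in both (78.4% and 60.4%), while 4 were called in opposite directions. Across the 10046 genes the differences had a Pearson correlation of 0.816, as a description of genes that were normalised together and share their study.

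In control and metformin livers *Prg2* differed by −4.90 and −4.70, *Hao2* by −2.96 and −3.22, and *Trib3* by 1.93 and 1.57. *Apoa4* differed by 2.97 ± 0.44 with metformin, where the RD livers read 8.18 to 10.19 and the HFD livers 11.30 to 13.14. *Fgf21* was not called there (0.27, adjusted p = 0.515), with RD livers at 7.19 to 7.69 and HFD livers at 7.24 to 8.03. *Nsdhl* differed by −2.45, and of the 17 cholesterol genes 11 were lower and 1 higher with metformin (7 and 1 in control livers). Other lists stood differently in the metformin livers: cell cycle genes with 11 higher and 6 lower (2 and 11 in control livers), the respiratory chain with 10 and 26 (21 and 15), PPARA targets with 5 and 4 (9 and 2) and granulocyte markers with 5 and 8 (1 and 7). Of all genes 26.6% were higher and 22.2% lower in the metformin livers, and these differences between lists were not tested. A test of the difference between the 2 contrasts called 17 of 10046 genes (0.169%), and no gene named here was among them. The smaller values of *Apoa4* and *Fgf21* with metformin thus did not pass the test of a difference between the contrasts, which does not show that they were alike.

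**Figure D5:**
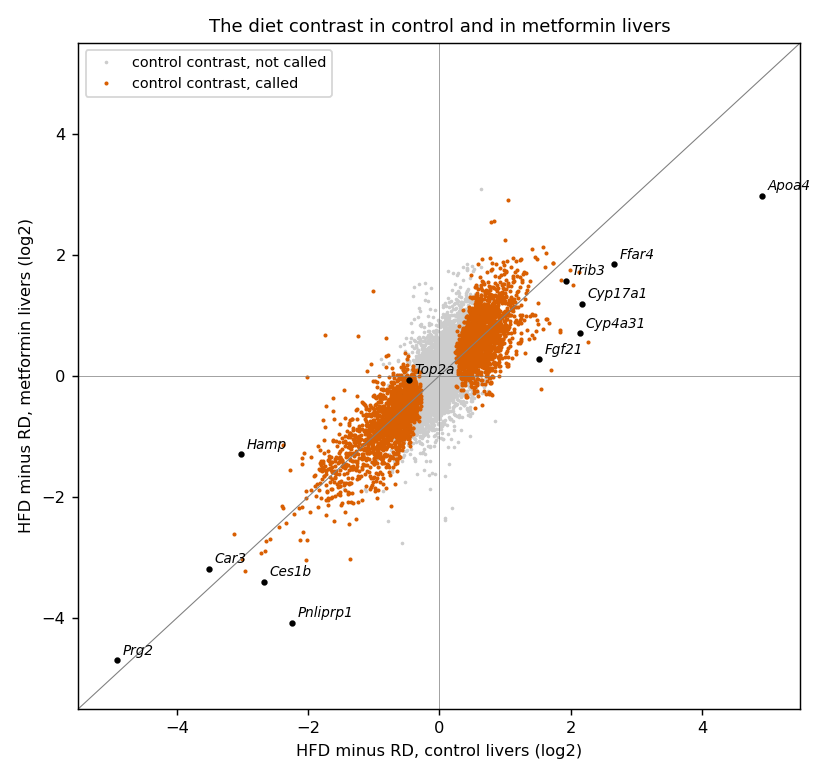
Difference between HFD and RD livers in log2 for 10046 genes, in control animals (x axis) and in metformin animals (y axis), with genes called in control livers in orange and the diagonal of equal values. *Prg2* lies near the diagonal (−4.90 and −4.70), and *Apoa4* (4.91 and 2.97) and *Fgf21* (1.52 and 0.27) lie below it.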

How the data were processed

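RNA of 41 tissue samples was read on Illumina Sentrix Mouse WG-6 v2 bead arrays. The deposited table used here holds, per array, the intensity of each of 45281 probes, not normalised, and a detection p-value. The authors also deposited log2 values after variance stabilisation and robust spline normalisation with lumi (version not given in the sources used here), used only as an alternative. Groups were taken from the labels.

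The neqc function (limma 3.58.1, R 4.3.3) corrected the background of the 24 livers through the detection p-values, added an offset of 16, and gave quantile-normalised log2 values. A probe was kept (17547 in all) if some group had it detected, at a p under 0.05, on each of its arrays, and each of 10046 genes was represented by its brightest kept probe. Probe names came from the platform annotation: 34885 probes had 1 symbol, 18 had several and 10378 had none, and only the first were named. A model of 6 liver groups was fitted with lmFit and eBayes, with Benjamini-Hochberg adjustment over all 17547 kept probes. A gene was called where its brightest kept probe had an adjusted p under 0.05. A probe detected on none of the 6 HFD arrays was given as a bound: the RD mean against the HFD mean of, per array, the higher of the lowest detected signal and the probe's own. Errors are SE of the fit. The p-values rest on a spread between animals pooled over the 24 livers and moderated by eBayes, not on the 9 compared livers alone. The number of arrays limits the precision.

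The members of the comparison and the 41 gene lists were chosen with earlier results of these data known. The text names the 12 largest differences in each direction among called genes with separate groups, and up to 4 members per list with the smallest p. Other genes, such as *Apoa1*, *Fgf21*, *Pnpla2*, *Scd1*, *Igf1*, *Irs2*, *Fos*, *Atp5b*, *Alb*, *Afp* and *Prg3*, were chosen after their values were seen. Scripts were tested on simulated data. Alternatives covered normalisation, filters, covariates, the choice of probe, animal codes and single arrays. A chip could not be used as a block, since the column names give no chip.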

Additional observations from a re-analysis of the deposited data

Results flagged for a closer look

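Each value below came from 1 HFD control liver whose gap to the nearest of the other 5 was large for the range of the group by Dixon's criterion. Of 144 genes examined 14 were picked out, and chance alone would pick out about 1 in 20 groups.

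Array 1T-1 was the outlying liver for 11 genes. It was highest for *Cyp4a31* (11.2, next 9.77), *Nrbp2* (10.27, next 8.15), *Trib3* (7.966, next 7.03), *Lgals4* (8.761, next 8.20), *Pnpla2* (10.7, next 9.04) and *Cyp27a1* (11.12, next 9.06), all in log2 intensity. It was lowest for *Car3* (4.388, next 8.07), *Afm* (7.998, next 8.51), *Srebf2* (6.871, next 7.18), *Ldha* (13.59, next 13.96) and *Igf1* (9.131, next 10.45). *Car3* was not detected on 1T-1, so its value there is background. All of these genes stayed called without 1T-1.

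Array 1R-1 was lowest for *Dync1h1* (8.593, next 8.99) and *Mccc1* (4.35, next 4.51) and highest for *Ugt2b34* (6.774, next 6.15). *Mccc1* was detected on none of the HFD arrays, so its values there are background and their order has no meaning. The mean intensity of 1R-1, 438.3, lay far above the next HFD control array at 255.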

How the results depend on the processing

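Centring each array on the median of all its probes left 32 genes higher in control livers and 64 in metformin livers, against an all-gene median of −0.57 in control livers. In control livers 1309 genes were higher and 1070 lower without the animals of code 1T, 469 and 463 with 1R-1 as the only HFD liver, 1286 and 1113 at an adjusted p under 0.01, and 168 and 438 with a log2 difference of at least 1. In metformin livers 1308 were higher and 1002 lower with 10K-1 as the only HFD liver, 1467 were lower without the animals of code 3R, and 496 and 601 had a difference of at least 1. Fewer arrays or a stricter threshold define the settings without code 1T or 3R, with 1R-1 or 10K-1 alone and at the stricter limits. For centring the cause was not tested. The settings with 1R-1 or 10K-1 alone and centring on detected probes were chosen after seeing the data, as was brightness as a covariate. Leaving out single livers gave 1495 to 2189 genes higher and 1273 to 1817 lower in control livers. *Apoa1* turned to −0.0501 under array-median centring, −0.012 without code 1T, −0.0432 with brightness as a covariate and −0.28 with 1R-1 alone. Array-median centring also turned *Srebf2* (−0.19), *Cyp7b1* (−0.0703), *Tpi1* (−0.0322), *Atp5b* (−0.23), *Sdhc* (−0.0851), *Mrps5* (−0.0187), *Mrps34* (−0.16), *Slc25a37* (−0.0247) and *Dmtn* (−0.10). Of the 140 called genes named, 139 stayed called with the authors' log2 values and 138 with brightness as a covariate. With the share of detected probes as a covariate 133 stayed called, without code 1T 130, and with array-median centring 91. Under that centring 40 lost their call and 9 turned, and all of these had been called higher in HFD. No paired analysis was possible because the labels give the groups no shared replicate numbers. Dim HFD arrays limit what can be read of weak probes.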
